A study of Homo sapiens with 6 samples.

Results

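The genes described here carry a cell from G1 into S phase and copy its DNA. A list of 52 symbols was matched through Ensembl identifiers to the deposited expression table (FPKM, reads per gene corrected for gene length and library depth), which has 29483 genes, and all 52 were found. The cells were HK-2, an established human renal proximal tubular epithelial line. Every library came from cells kept for 7 days in high D-glucose (HG) medium at 25 mM and then for 1 more day in HG. During that last day the cells of the 3 case libraries received TEPP-46 at 10 μM, and those of the 3 control libraries did not. TEPP-46 is a small molecule that activates the glycolytic enzyme PKM2 by favouring its tetramer. No vehicle for the control group and no normal-glucose group is described in the sources used here, so the comparison is of TEPP-46 against none, within HG. The replicates of both groups come from 1 cell line, and the study calls them independent and separately treated. Whether they were grown as separate cultures is not said, so the p-values measure the spread between these libraries, which may be partly technical.

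Entry into S phase starts with D-type cyclins, which bind CDK4 and CDK6, and E-type cyclins, which bind CDK2. These kinases phosphorylate RB and its relatives, which releases E2F factors, and E2F factors drive the genes for replication. In G1 the origin recognition complex, CDC6 and CDT1 load the MCM2 to MCM7 helicase onto DNA (licensing). CDC45 and the GINS complex then turn it into the active helicase, and polymerases follow with the sliding clamp PCNA and its loader RFC. HK-2 cells were immortalised with the E6 and E7 genes of a papillomavirus, and E7 is known to bind the RB family.

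Reads assigned to genes, recovered as whole numbers from the FPKM values by their steps or by annotated exon length, came to 18587363, 17876835 and 17333350 in control replicates 1, 2 and 3. Case replicates 1, 2 and 3 held 16673019, 16007873 and 15326708. Each case library thus had fewer reads assigned to genes than each control library. In the study's own counts, mapped clean reads overlapped between the groups, while reads in exons were also lower in each case library. The epithelial origin of the RNA was visible, with mean FPKM values of 346 for *KRT19* and 308 for *KRT8*. Of 17 proximal tubule markers, 14 were in the table, and 13 of these 14 had a mean below 0.5 FPKM. *LRP2*, which encodes megalin, had 1 library above 0. By its marker genes the RNA is epithelial, and most defining genes of the proximal tubule were near 0. Markers of fibroblasts and endothelium were all below 0.5 FPKM, and the leukocyte marker *CD14* had a mean of 0.535. The epithelial cadherin gene *CDH1* had 3.34, 3.50 and 3.40 FPKM in the control libraries and 1.83, 2.32 and 2.00 in the case libraries. Its log2 fold change was -0.64 (SE 0.11, limma, adjusted p = 0.0156). *CD14* had 0.882, 0.621 and 0.915 FPKM against 0.286, 0.231 and 0.276, from 7 to 31 reads a library. Its mean reached 0.5 FPKM, the minimum for testing, only through the control libraries (group means of 0.806 and 0.264). Its fold change was therefore not used. The part of *CDH1* and *CD14* in the results below was not tested.

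Levels of the 52 genes ran from 280 FPKM on average for *TK1*, the thymidine kinase of dividing cells, to 0.0207 for *CCND2*. *CCND2* had 1 to 5 reads in each library and a mean FPKM under 0.5, the minimum for testing, and it was the only one of the 52 that was not tested. The other 51 were tested with limma on log2 of the scaled FPKM plus 0.1, among 13599 genes in all. Fold changes below are on that scale, case minus control, with the standard error (SE), and a gene with an adjusted p of at most 0.05 is called a DE gene. FPKM values of single libraries are given as deposited.

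A few of these genes changed by small amounts after TEPP-46, and most did not pass the threshold. *CCND1* and *UHRF1* were downregulated DE genes, and *CDC45*, *CDK2*, *GINS3* and *RFC4* were upregulated DE genes. These 6 are 11.8% of the 51 tested, while 13.2% of all tested genes were DE genes (7.34% upregulated and 5.84% downregulated). The share among the replication genes was therefore close to that of the whole table. None of the 6 changed by more than 0.45 on the log2 scale. The median log2 fold change was 0.03 over the 51 genes and -0.00 over all tested genes. An unadjusted p under 0.05 was found for 24 of the 51 (15 higher and 9 lower), against 33.1% of all tested genes. On the scaled values the groups did not overlap in 27 of the 51 (52.9%), 18 with higher and 9 with lower case values, against 39.9% of all tested genes (19.5% higher and 20.4% lower). In bulk RNA, a different share of cells in S phase and a different amount of these RNAs per cell, in either direction, cannot be told apart.

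**Figure D1:**
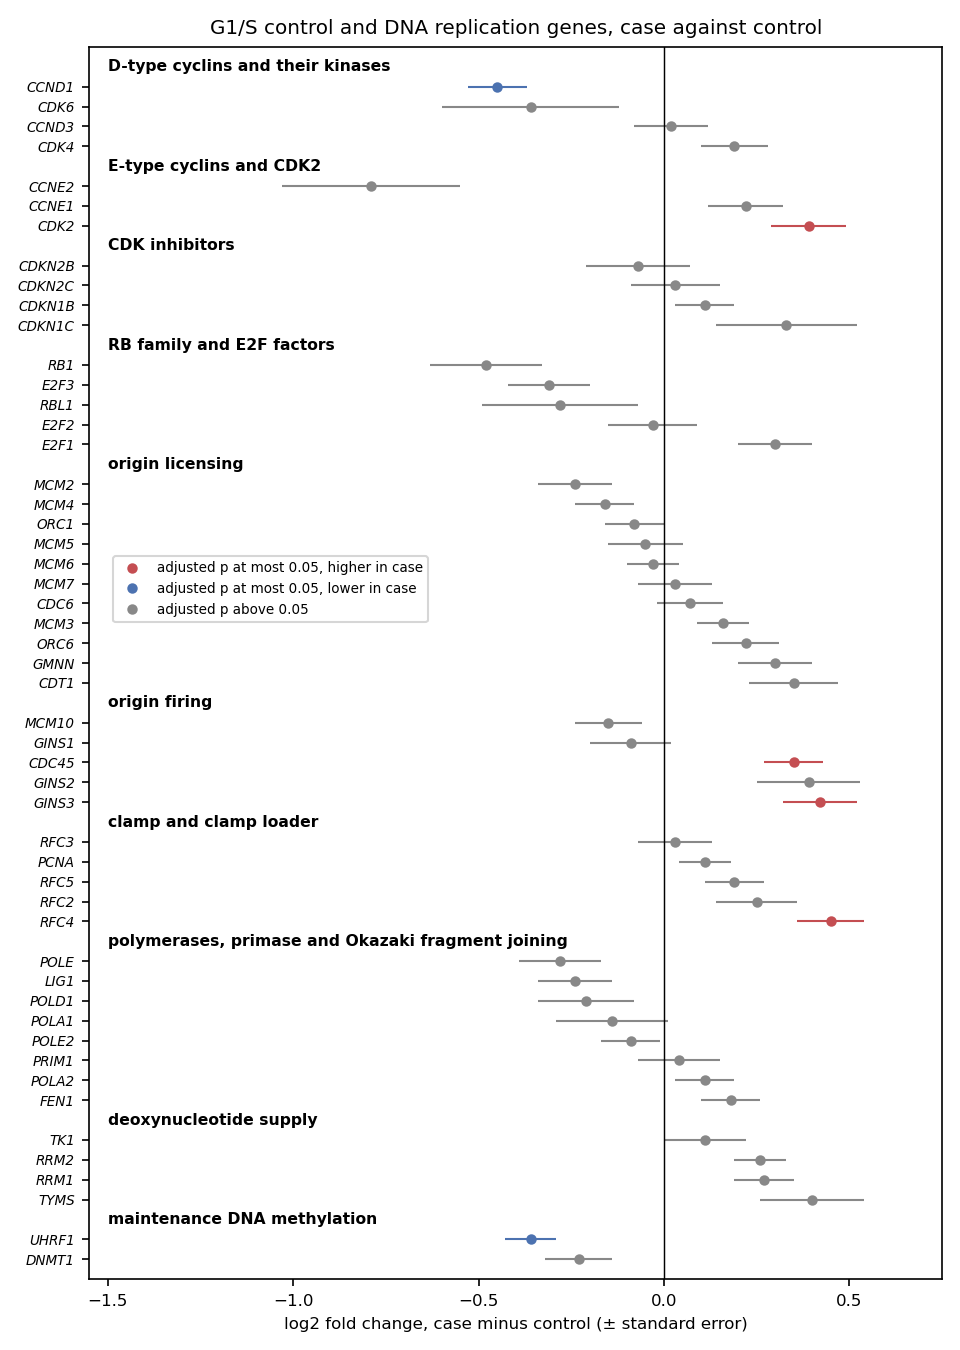
Log2 fold change (case minus control, horizontal axis, points with bars of 1 SE) of the 51 tested G1/S and replication genes, grouped by role. Red and blue points passed an adjusted p of 0.05. They are the 4 upregulated genes between 0.35 and 0.45 and the downregulated *CCND1* (-0.45) and *UHRF1* (-0.36), while *CCNE2* (-0.79) lies farthest from 0 with a wide bar.

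*CCND1* was the most abundant of the D-type cyclin genes. It encodes cyclin D1 and lies on the plus strand of chromosome 11 at chr11:69641156-69654474 (GRCh38). Its FPKM was 43.4, 44.8 and 45.2 in control replicates 1, 2 and 3 and 29.1, 35.0 and 28.9 in the case replicates. All case values lay below all control values, and case replicate 2 was nearest to them. The log2 fold change was -0.45 (SE 0.08, limma, adjusted p = 0.0193), a ratio of 0.733. *CCND1* shares 10.4% of its exon bases with *LTO1* on the opposite strand, which had a mean of 2.93 FPKM. Whether the libraries kept strand is not given in the sources used here, so reads of such pairs cannot be assigned with certainty.

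*CDK4*, the kinase partner of cyclin D1, had 41.3, 40.5 and 39.8 FPKM in the control libraries and 47.1, 42.4 and 42.0 in the case libraries. These values did not overlap, but the log2 fold change of 0.19 (SE 0.09) did not pass the threshold (adjusted p = 0.175). The opposite-strand gene *TSPAN31* (1.24 FPKM) covers 44.2% of the exon bases of *CDK4*. Within each library the FPKM ratio of *CCND1* to *CDK4*, which needs no scaling between libraries, was 1.05, 1.11 and 1.14 in the control libraries and 0.618, 0.826 and 0.686 in the case libraries. Every case ratio thus lay below every control ratio. The size of the ratio depends on the gene lengths used for FPKM, so it does not rank the mRNAs of the cyclin and its kinase. The pairs of genes in such ratios were chosen after their values were seen, and no such ratio was corrected for gene length. *CCND1* has a longer gene model (4830 bases) than *CDK4* (3168). With a correction for gene length their log2 fold changes were -0.43 and 0.11. *CCND3* (log2 fold change 0.02) and *CDK6* (-0.36, SE 0.24) were not DE genes, and *CDK6* had 64 to 157 reads in a library.

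*CDK2*, the kinase of S-phase entry that pairs with cyclin E, is on the plus strand at chr12:55966781-55972789. Its FPKM was 9.91, 11.2 and 10.1 in the control libraries and 13.4, 12.1 and 13.4 in the case libraries. The case values were all higher, and the log2 fold change was 0.39 (SE 0.10, limma, adjusted p = 0.0359). *CDK2* belongs to the p53 pathway genes that the study listed from these samples, so it is not an independent choice. Its exons share 14.5% of their bases with an unnamed gene on the opposite strand that was not analysed here.

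The E-type cyclin genes had log2 fold changes of opposite sign, and neither passed the threshold. *CCNE1* had 5.56, 4.84 and 5.14 FPKM in the control libraries and 5.87, 5.35 and 6.02 in the case libraries. These groups overlapped, and the log2 fold change was 0.22 (SE 0.10, adjusted p = 0.174). *CCNE2* had 1.71, 1.65 and 1.58 FPKM against 0.599, 1.28 and 0.829. Its groups did not overlap, and its log2 fold change of -0.79 was the lowest of the 51 genes, but with an SE of 0.24 the adjusted p was 0.0612. With a pseudocount of 1 the value was -0.45 (adjusted p = 0.0551), and it passed with voom on whole reads (-0.85, adjusted p = 0.0176), TPM (-0.97, adjusted p = 0.0389), the GC correction (-0.71, adjusted p = 0.032) and without case replicate 2 (-1.03, adjusted p = 0.0123). Only 44 to 140 reads stood behind each value of *CCNE2*, and *INTS8* on the opposite strand (9.39 FPKM) covers 37.0% of its exon bases. The ratio of *CCNE2* to *CCNE1* was 0.308, 0.341 and 0.308 in the control libraries and 0.102, 0.238 and 0.138 in the case libraries.

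None of the 4 inhibitor genes on the list was a DE gene. *CDKN1B*, which encodes p27, had 17.1, 19.4 and 19.1 FPKM in the control libraries and 18.6, 19.4 and 18.7 in the case libraries (log2 fold change 0.11, SE 0.08, adjusted p = 0.389). *CDKN2B*, which encodes the CDK4 and CDK6 inhibitor p15, had 3.93, 4.11 and 5.56 against 3.73, 4.51 and 3.93 (-0.07, SE 0.14, adjusted p = 0.772). The deposited values of both genes overlapped between the groups, while after scaling the case values of *CDKN1B* were all higher. *CDKN2C* and *CDKN1C*, for p18 and p57, had log2 fold changes of 0.03 and 0.33 with adjusted p-values of 0.892 and 0.245.

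Among the RB and E2F genes, *RB1* stood lowest. It had 7.54, 8.05 and 8.10 FPKM in the control libraries and 4.32, 6.97 and 5.02 in the case libraries. The case values were all lower, but they spread widely, with case replicate 2 close to the control group, and the log2 fold change of -0.48 (SE 0.15) missed the threshold (adjusted p = 0.0645). *RBL1*, which encodes the RB relative p107, had a log2 fold change of -0.28 (SE 0.21) and overlapping groups.

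*E2F1*, an activating E2F, had 33.5, 32.7 and 28.4 FPKM in the control libraries and 38.4, 35.4 and 36.4 in the case libraries. Its case values were higher in every library, with a log2 fold change of 0.30 (SE 0.10, adjusted p = 0.077). *E2F3*, another activating E2F, had case values below all control values and a log2 fold change of -0.31 (SE 0.11, adjusted p = 0.0877). The ratio of *E2F3* to *E2F1* was between 0.15 and 0.182 in the control libraries and between 0.0969 and 0.131 in the case libraries. *E2F2* was at -0.03.

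Sequence shared by these genes was looked for in the 250 bases before the transcription start in RefSeq promoters (GRCh38), which were found for 45 of the 52 genes. Those not found were *CCND1*, *CCND2*, *CCNE2*, *CDK2*, *CDKN1C*, *MCM4* and *MCM5*. The E2F element was searched as the words TTTCCCGC, TTTCGCGC, TTTGCCGC and TTTGGCGC on both strands. At least 1 of these words was in 18 of the 45 genes (40.0%), against 3.4% of all 27305 genes with a promoter. Among other genes of G1/S control and replication, described below, 16.7% of the 78 with a promoter had a word. In 15 of the 18 the nearest word lay within 100 bases of the start. The stretches of 7 genes are shown, chosen as 1 or 2 for each step from the E2F factors to the copying of DNA. They are written 5′ to 3′ on the strand of the gene with the words in capitals.
E2F1: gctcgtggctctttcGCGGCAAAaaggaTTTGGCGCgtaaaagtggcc
RBL1: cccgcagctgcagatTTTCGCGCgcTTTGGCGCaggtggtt
CDT1: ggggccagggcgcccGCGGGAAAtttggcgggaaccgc
MCM6: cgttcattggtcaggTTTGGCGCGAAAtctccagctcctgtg
PCNA: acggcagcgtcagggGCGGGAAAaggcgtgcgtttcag
TYMS: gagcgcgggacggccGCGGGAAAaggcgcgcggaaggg
UHRF1: aaatgccgagttttcGCGGGAAAaaaatc

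The stretches lie at chr20:33686386-33686433 (minus strand, *E2F1*), chr20:37095998-37096038 (minus strand, *RBL1*), chr16:88803739-88803776 (plus strand, *CDT1*) and chr2:135876507-135876548 (minus strand, *MCM6*). Those of *PCNA*, *TYMS* and *UHRF1* lie at chr20:5126659-5126696 (minus strand), chr18:657599-657636 (plus strand) and chr19:4909472-4909500 (plus strand). *E2F1* and *RBL1* carry 2 words each, and in *MCM6* the capitals are 2 words that overlap. No test was run of the fold change against the E2F words. The median log2 fold change was 0.03 in the 18 genes with a word and 0.07 in the 27 without, and of the 4 DE genes with a promoter *UHRF1* had a word while *CDC45*, *GINS3* and *RFC4* had none. The CCAAT box (CCAAT) was in 55.6% of the 45 genes and 37.0% of all genes, and the CHR element (TTTGAA), known from genes of G2 and mitosis, in 4.44% and 16.1%. Among the 78 other genes of G1/S control and replication, the CCAAT box was in 51.3% and the CHR element in 17.9%. Of 33 genes of G2 and mitosis, 81.8% had a CCAAT box. A match of letters is a description and does not show that a factor bound there.

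None of the 11 licensing genes was a DE gene, and their log2 fold changes ran from -0.24 to 0.35. *CDC6*, the loading factor, had 15.5, 15.1 and 16.0 FPKM in the control libraries and 13.7, 17.9 and 15.2 in the case libraries, with the control values inside the case range (log2 fold change 0.07, SE 0.09, adjusted p = 0.616). *CDT1*, the other loading factor, had 26.0, 24.4 and 24 against 34, 26.8 and 29.9, which did not overlap (0.35, SE 0.12, adjusted p = 0.0784). *GMNN*, which encodes the CDT1 inhibitor geminin, was at 0.30 (SE 0.10, adjusted p = 0.0739), and the ratio of *CDT1* to *GMNN* overlapped between the groups. *ORC1* (-0.08) and *ORC6* (0.22) of the origin recognition complex had adjusted p-values of 0.519 and 0.139.

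The MCM2 to MCM7 proteins form a ring with 1 copy of each, and none of their 6 genes passed the threshold. *MCM2* had 75.7, 73.4 and 71.9 FPKM in the control libraries and 65.5, 59.1 and 52.9 in the case libraries (log2 fold change -0.24, SE 0.10, adjusted p = 0.140). *MCM3* had 82.4, 82.3 and 81.2 against 84.7, 89.7 and 85.8 (0.16, SE 0.07, adjusted p = 0.140). *MCM4* had 47.2, 49.3 and 46.5 against 38.9, 44.2 and 38.1 (-0.16, SE 0.08, adjusted p = 0.180). As deposited, *MCM2* and *MCM4* were thus lower and *MCM3* higher in every case library than in any control library, while after scaling the groups of *MCM2* overlapped.

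*MCM5* had 54.7, 52.1 and 52.2 FPKM in the control libraries and 53.8, 46.3 and 46.4 in the case libraries (log2 fold change -0.05, adjusted p = 0.777). *MCM6* had 44.1, 45.3 and 44.1 against 40.1, 44 and 39.9 (-0.03, adjusted p = 0.789). *MCM7* had 122.4, 124.1 and 118.4 against 130.6, 112.3 and 111.8 (0.03, adjusted p = 0.848). Values of *MCM5* and *MCM7* overlapped, with case replicate 1 the highest of the case libraries in both. *MCM7* had the highest level of the 6 subunit genes and *MCM6* the lowest, with *MCM4* close to it (means of 42.9 and 44 over the 6 libraries).

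Ratios to *MCM3* within a library need no scaling between libraries. They are a description, since *MCM3* had the highest log2 fold change of the 6 and no difference between the subunit genes was tested. *MCM2* was at 0.918, 0.891 and 0.886 of *MCM3* in the control libraries and at 0.773, 0.659 and 0.616 in the case libraries. *MCM4* was at 0.573, 0.599 and 0.572 against 0.459, 0.493 and 0.443. *MCM6* was at 0.535, 0.55 and 0.543 against 0.474, 0.49 and 0.465. For these 3 genes every case ratio lay below every control ratio, whereas the ratios of *MCM5* and *MCM7* overlapped between the groups. *MCM3* also has the shortest gene model of the 6 (3650 bases, against up to 7338 for *MCM5*), and with the length correction the log2 fold changes of *MCM2* to *MCM7* were -0.22, 0.11, -0.06, 0.08, -0.05 and 0.03. *MCM2* shares 23.6% of its exon bases with an opposite-strand gene that was not analysed here. The sum over the 6 subunit genes was 426.6, 426.6 and 414.3 FPKM in the control libraries and 413.5, 395.6 and 374.8 in the case libraries.

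**Figure D2:**
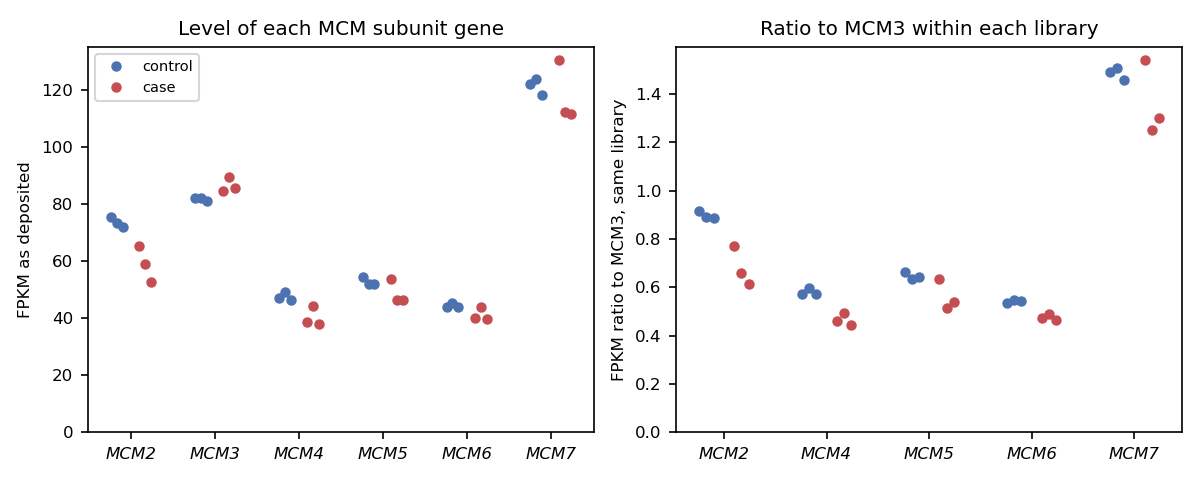
FPKM as deposited of the 6 MCM subunit genes (left, vertical axis) and the FPKM ratio of 5 of them to *MCM3* in the same library (right), with 1 point per library and the control group in blue and the case group in red. *MCM2*, *MCM4* and *MCM6* have lower ratios in all 3 case libraries than in any control library, and *MCM5* and *MCM7* overlap.

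Origin firing held 2 of the 4 upregulated DE genes. *CDC45*, whose protein joins the MCM ring to form the active helicase, is on the plus strand at chr22:19479457-19520612. It had 33.6, 32.5 and 30.3 FPKM in the control libraries and 38.9, 37.9 and 39.3 in the case libraries. The case values were all higher and close to each other, and the log2 fold change was 0.35 (SE 0.08, limma, adjusted p = 0.0309). *CDC45* passed in 10 of the 20 alternatives, but not with TPM, quantile normalization or the length correction. Over the 20 alternatives its log2 fold change ran from 0.15 to 0.38. *GINS3*, 1 of the GINS subunits, is on the plus strand at chr16:58295080-58406147. It had 3.22, 3.56 and 3.46 FPKM against 4.13, 4.16 and 4.79, again with no overlap, and a log2 fold change of 0.42 (SE 0.10, limma, adjusted p = 0.0379). With same-numbered replicates as a block *GINS3* was not called. The exons of *GINS3* share 10.9% of their bases with an opposite-strand gene not analysed here.

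Of the other GINS genes, *GINS2* was at 0.39 (SE 0.14, adjusted p = 0.0958) and *GINS1* at -0.09 (SE 0.11, adjusted p = 0.626). The ratio of *GINS1* to *GINS3* was 1.95, 1.76 and 1.72 in the control libraries and 1.12, 1.54 and 1.17 in the case libraries, so *GINS1* was lower relative to *GINS3* in every case library. The ratio of *GINS2* to *GINS3* overlapped between the groups. *MCM10*, a firing factor that binds the helicase, was at -0.15 (adjusted p = 0.257).

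Of the clamp and its loader, *RFC4* was the DE gene. It encodes a subunit of the replication factor C ring that opens PCNA, and it lies on the minus strand at chr3:186789880-186807058. Its FPKM was 23.6, 21.8 and 21.9 in the control libraries and 26.3, 29.0 and 31.9 in the case libraries. The groups did not overlap, and the log2 fold change of 0.45 (SE 0.09, limma, adjusted p = 0.0214) was the highest of the 51 genes. *PCNA* itself had 119.7, 122.7 and 116.1 against 114.0, 125.0 and 128.3 FPKM, with the control values inside the case range (0.11, SE 0.07, adjusted p = 0.314). After scaling, its case values were all above its control values. *RFC2*, *RFC3* and *RFC5* were at 0.25, 0.03 and 0.19 and were not DE genes. The ratio of *RFC4* to *RFC3* was 1.57, 1.36 and 1.47 in the control libraries and 2.00, 1.67 and 2.24 in the case libraries. All 5 genes of this role had a positive log2 fold change, but with the FPKM unscaled 4 of 5 did, with TPM 2, with quantile normalization 3, and with a correction for gene length 3.

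The 8 genes of polymerases, primase and Okazaki fragment joining held no DE gene, and their log2 fold changes ran from -0.28 to 0.18. *POLE*, the catalytic subunit of the leading-strand polymerase, was the lowest (SE 0.11, adjusted p = 0.127). However, it has the longest gene model of the 51 (16609 bases, against 12364 of annotated exons) and turned to 0.08 with the length correction. It was followed by the DNA ligase gene *LIG1* at -0.24 (adjusted p = 0.147) and *POLD1* at -0.21 (adjusted p = 0.307). The highest was *FEN1*, the flap nuclease of lagging-strand synthesis, with an adjusted p of 0.179. The genes of polymerase alpha and primase, *POLA1*, *POLA2* and *PRIM1*, were at -0.14, 0.11 and 0.04, and *POLE2* was at -0.09.

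Genes of deoxynucleotide supply had log2 fold changes from 0.11 to 0.40 and none passed the threshold. *RRM2*, the small subunit of ribonucleotide reductase made in S phase, had 49.0, 53.0 and 52.5 FPKM in the control libraries and 53.9, 63.4 and 58.3 in the case libraries. Its case values were all higher, with a log2 fold change of 0.26 (SE 0.07) and an adjusted p of 0.056. *RRM1*, the large subunit, was at 0.27 (SE 0.08, adjusted p = 0.0572), and the ratio of *RRM2* to *RRM1* overlapped between the groups. *TYMS*, which encodes thymidylate synthase, had 9.54, 9.46 and 11.0 against 14.7, 10.6 and 12.5 FPKM (0.40, SE 0.14, adjusted p = 0.104). Its groups overlapped, and *ENOSF1* on the opposite strand (2.71 FPKM) covers 39.9% of its exon bases. *TK1* had 284.4, 271.3 and 273.7 against 321.3, 252.1 and 279.3 FPKM, with the control values inside the case range. The positive sign of all 4 genes was kept with unscaled FPKM, and for 3 of 4 with TPM, quantile normalization and the length correction, where *TK1* turned negative.

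Maintenance of DNA methylation at the fork held the other downregulated DE gene. *UHRF1* encodes the protein that reads hemimethylated DNA behind the fork and recruits DNMT1, and it lies on the plus strand at chr19:4903080-4962154. Its FPKM was 36.3, 35.3 and 35.7 in the control libraries and 26.2, 27.1 and 25.7 in the case libraries. The libraries of each group were close to each other and far from the other group, case replicate 2 included, with a log2 fold change of -0.36 (SE 0.07, limma, adjusted p = 0.0204). *DNMT1*, the maintenance methyltransferase, had 46.1, 47.9 and 47.1 against 39.1, 40.8 and 34.3 FPKM. These did not overlap either, with a log2 fold change of -0.23 (SE 0.09, adjusted p = 0.108), which came to -0.03 with the length correction (adjusted p = 0.88). The ratio of *UHRF1* to *DNMT1* overlapped between the groups, while that of *UHRF1* to *PCNA* was 0.303, 0.287 and 0.307 in the control libraries and 0.23, 0.217 and 0.2 in the case libraries.

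**Figure D3:**
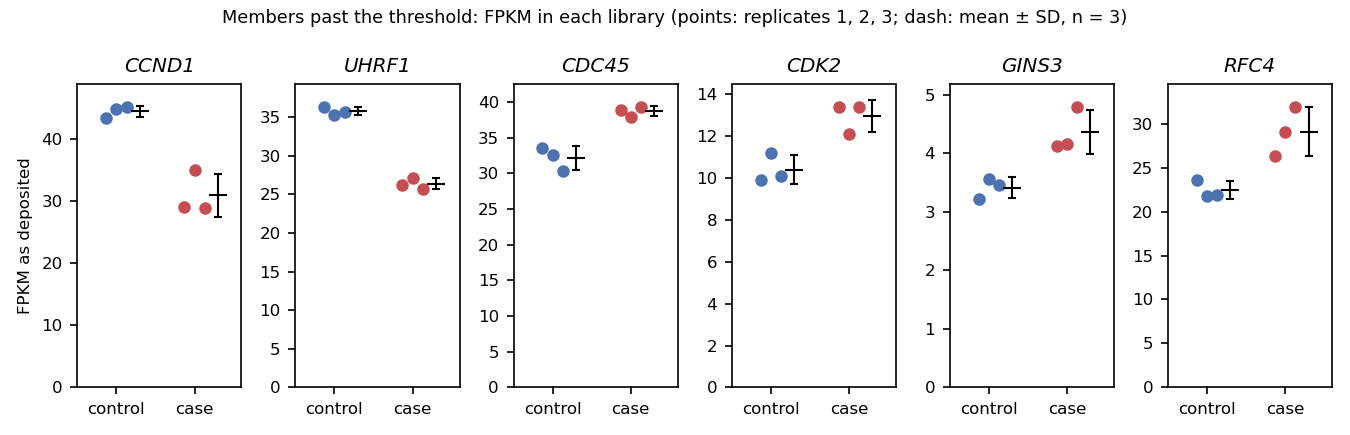
FPKM as deposited (vertical axes, from 0) of the 6 DE genes in the 3 control (blue) and 3 case (red) libraries, with the mean and SD of each group (n = 3) beside the points. In each gene the case values lie on one side of the control values, lower for *CCND1* and *UHRF1* and higher for the other genes, and the case value of *CCND1* nearest to the control group is replicate 2, at 35.0.

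The case libraries were not alike. On the first principal component of all tested genes (37.2% of the variance) the control libraries lay between -27.8 and -22.9, case replicates 1 and 3 at 30.5 and 34.4, and case replicate 2 at 9.54. Of the 51 genes, 26 were nearer to the control mean in case replicate 2 than in both other case libraries. The same count was not made over all tested genes. The SD of the differences of the 51 genes from the control mean was 0.39, 0.20 and 0.32 on the log2 scale in case replicates 1, 2 and 3. Over all tested genes it was 0.57, 0.49 and 0.57. *CDK6*, *RBL1* and *POLA1* were at -0.83, -0.72 and -0.42 in case replicate 1 and at 0.01, 0.14 and 0.16 in case replicate 2. *UHRF1* had -0.32, -0.37 and -0.41 in the case replicates and *RFC4* 0.36, 0.40 and 0.58, so both DE genes had the same sign in all 3 libraries.

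The counts changed when 1 library was left out. Leaving out case replicate 2, 9 of the 51 genes were upregulated and 5 downregulated (27.5%, against 25.7% of all tested genes), and leaving out case replicate 1 the numbers were 8 and 5 (25.5%, against 16.8%). Without case replicate 3, or without control replicate 1, 2 or 3, limma called none of the 51, with 14, 14, 12 and 13 genes at an unadjusted p under 0.05. In those fits 1.41%, 0.771%, 0.507% and 0.64% of all tested genes were DE genes. Each of the 6 DE genes kept its direction in all 20 alternatives, with log2 fold changes from -0.65 to -0.39 for *CCND1*, -0.56 to -0.33 for *UHRF1*, 0.25 to 0.49 for *RFC4*, 0.20 to 0.46 for *CDK2*, 0.15 to 0.38 for *CDC45* and 0.22 to 0.48 for *GINS3*. *CCND1* passed the threshold in 16 of the 20 alternatives and *UHRF1* in 15, followed by *RFC4* (13), *CDK2* (11), *CDC45* (10) and *GINS3* (10). Genes that missed the threshold passed it in some alternatives, *MCM2* in 5, *CCNE2*, *DNMT1*, *RB1* and *RRM2* in 4 each, *CDT1*, *E2F3*, *LIG1* and *RRM1* in 3 each, and others in 1 or 2.

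**Figure D4:**
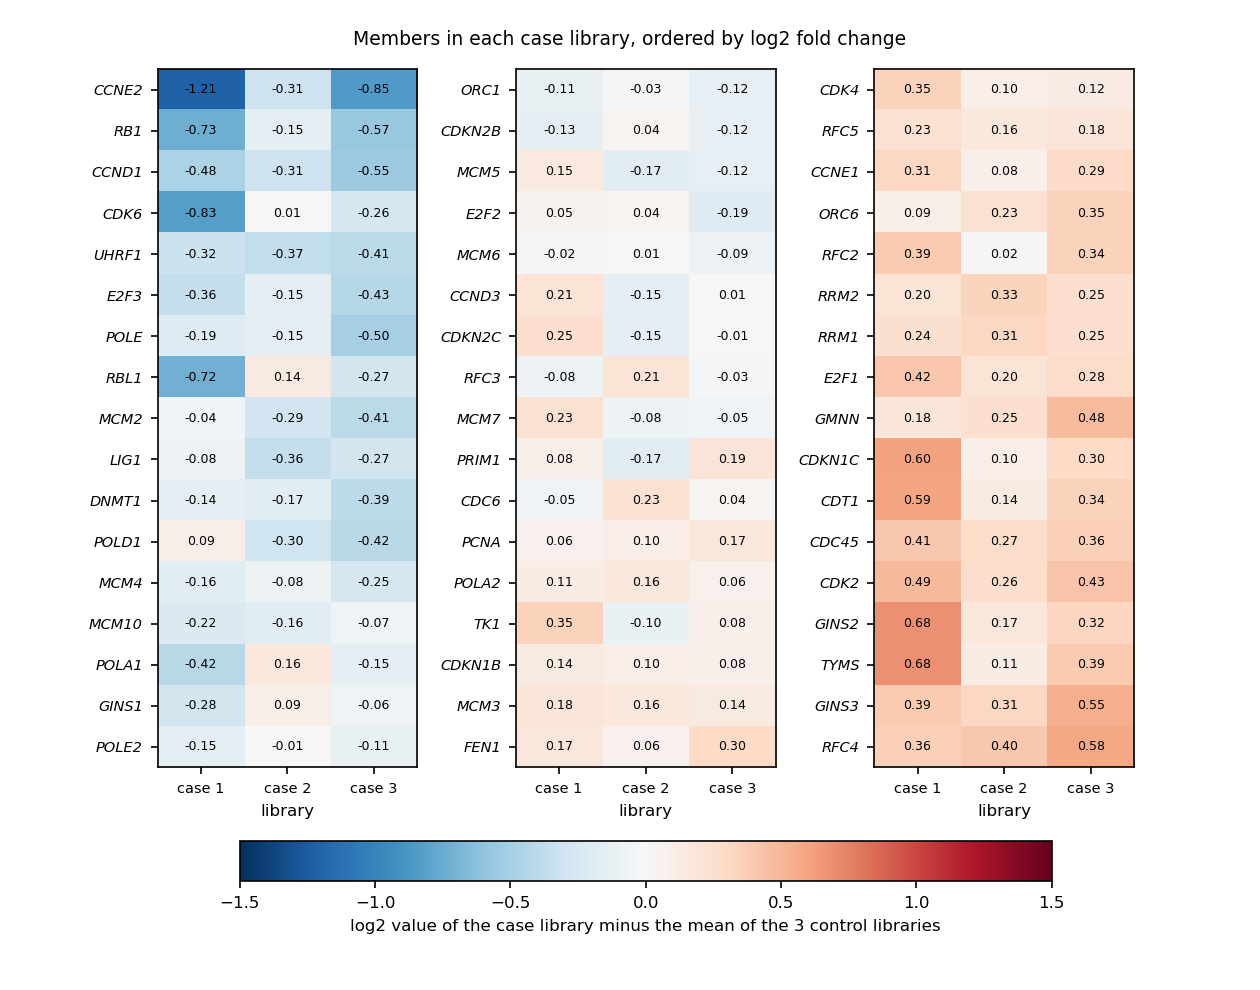
Log2 value of each case library (columns) minus the mean of the 3 control libraries, for the 51 tested genes (rows) in order of their log2 fold change, with blue for lower and red for higher. Case replicate 2 is paler than the other case libraries in many rows, for example *CDK6* (-0.83, 0.01 and -0.26), and *UHRF1* and *RFC4* are alike in all 3.

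Direction also turned on the scaling between libraries. The deposited FPKM summed to 289244.5 to 295418.2 in the control libraries and 310111.1 to 323755.0 in the case libraries. Taken unscaled, the median log2 fold change of all tested genes was -0.08, with 662 upregulated and 1124 downregulated DE genes in place of 998 and 794, and 3 and 4 among the 51 genes. As TPM, in which every library sums to the same total, the median was -0.19, with 383 and 2387 DE genes, and 0 and 12 among the 51. The 12 comprised *CCND1*, *UHRF1*, *CCNE2*, *RB1*, *E2F3*, *MCM2*, *MCM4*, *MCM10*, *POLD1*, *POLE*, *LIG1* and *DNMT1*, while the median of the 51 was -0.17, close to that of all genes. The 52 genes made up 0.541%, 0.547% and 0.525% of the FPKM sum in the control libraries and 0.497%, 0.497% and 0.479% in the case libraries, and their summed FPKM overlapped (1552.0 to 1588.4 and 1541.6 to 1607.9).

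Gene length moved with the fold change. The length of the gene model was the annotated exon length where that fitted the FPKM values, and was otherwise inferred from their steps. It can differ from the annotated length, for example 2811 against 9255 bases for *CDKN1B*. Over the 51 genes Pearson's r between the log2 fold change and the log10 length of the gene model was -0.55 (Spearman's rho -0.62), and over all tested genes with a length and GC content it was -0.28 (rho -0.36, n = 13489). Genes share the same 6 libraries here and are not independent, so these values are a description. Of the 29 genes with a positive log2 fold change, 21 were shorter than 4000 bases, and of the 22 with a negative one, 20 had at least 4000 (a limit chosen after the values were seen). *CCND1* and *UHRF1* are among the longer genes with 4830 and 5145 bases, and *CDC45* and *RFC4* among the shorter ones with 2846 and 2997. *GINS3*, at 5105 bases, was upregulated. With a length correction 6 genes passed again (11.8%, against 10.9% of all tested genes), with *RRM2* in place of *CDC45*, and an unadjusted p under 0.05 was found for 15 of the 51 in place of 24. Beyond this correction, the part of length in these results was not tested. GC content moved with single libraries, with r over the 51 genes of 0.53, -0.27 and 0.09 in case replicates 1, 2 and 3. Over all tested genes with a length and GC content these values were 0.27, -0.14 and -0.08. With a correction for it, chosen after the data were seen, 9 genes were upregulated and 8 downregulated (33.3%, against 23.2% of all tested genes).

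**Figure D5:**
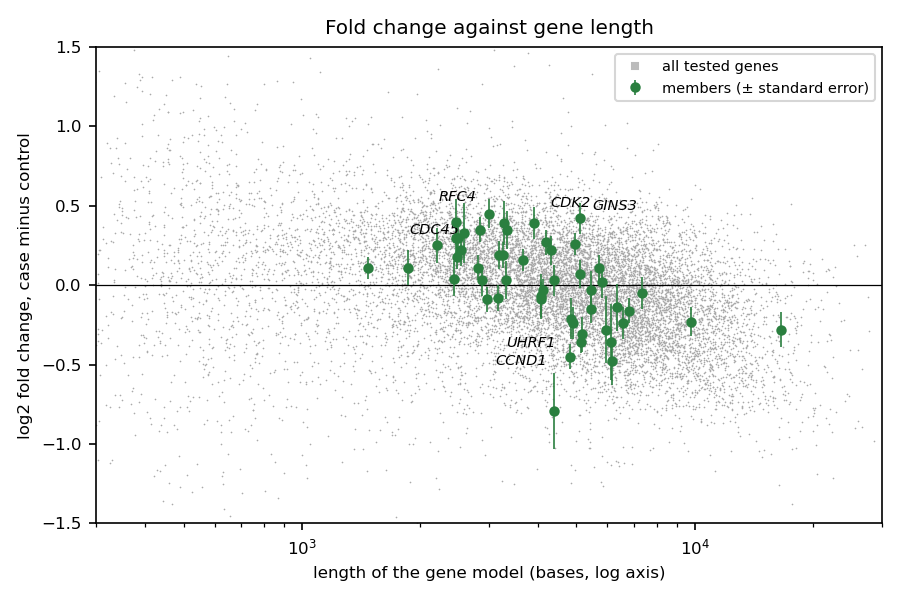
Log2 fold change (vertical axis, case minus control) against the length of the gene model in bases (horizontal log axis) for all tested genes (grey) and the 51 G1/S and replication genes (green, bars of 1 SE), with the DE genes named. Both axes are limited, so some grey points lie outside. The green points fall from left to right (r = -0.55), and *GINS3* lies above 0 at 5105 bases.

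Beyond the 52 genes, 92 other genes of G1/S control and replication were in the table and 89 were tested. Of these, 6 were upregulated and 5 downregulated, 12.4% against 13.2% of all tested genes. The 5 upregulated ones with the largest fold changes were *CDK7*, the kinase that activates other CDKs (log2 fold change 0.67, SE 0.09, limma, adjusted p = 0.0101), *CDKN1A*, which encodes the CDK inhibitor p21 (0.66), *CDKN2D*, which encodes p19 (0.61), the origin recognition gene *ORC5* (0.55) and *RNASEH2B*, a subunit of the ribonuclease that removes RNA from DNA (0.50). *CDKN1A* had 40.9, 38.4 and 40.0 FPKM in the control libraries and 64.2, 58.7 and 55.9 in the case libraries, with no overlap. It also belongs to the p53 pathway, of which the study listed genes from these samples. The downregulated ones were *CLSPN*, which encodes the checkpoint adaptor claspin (-0.77, SE 0.20, limma, adjusted p = 0.0451), *RBL2*, which encodes the RB relative p130 (-0.67), *SKP2*, whose product marks p27 for degradation (-0.66), *TOB1* (-0.35) and *CCNG1* (-0.28). *SKP2* had 13, 14.3 and 13.7 FPKM against 7.63, 8.71 and 8.21. The inhibitor gene *CDKN2A* was far above the 4 listed inhibitors, with means of 222 FPKM in the control libraries and 224 in the case libraries (adjusted p = 0.643).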

How the data were processed

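RNA of 3 control and 3 case replicates of HK-2 cells was sequenced in 150-bp paired-end reads. The authors aligned filtered reads to GRCh38.p13 with HISAT2 (version 2.1.0), counted them per gene with HTSeq (version 0.6.0) and deposited FPKM. RNA selection, strandedness and the annotation used are not given in the sources used here. Since FPKM values are not counts, the count test of the study was replaced by limma (version 3.58.1, R 4.3.3) with an intensity trend and no covariates, on log2(FPKM divided by a median-of-ratios factor + 0.1). The factors were 1.028, 1.033 and 1.036 for control and 0.9437, 1.011 and 0.9838 for case replicates. Testing was limited to the 13599 genes whose FPKM averaged 0.5 or more, and p was adjusted over them by the Benjamini-Hochberg method. The median SD between replicates was 0.089 (control) and 0.189 (case) on the log2 scale. An exact permutation test of 3 against 3 cannot go below p = 0.1.

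Whole reads were recovered for 95.5% of 27922 genes above 0 (tolerance 0.02 reads), giving the reads assigned to genes: 13723 genes from the FPKM steps and 12939 by annotated exon length, with 1260 not resolved. No molecular identifiers are described, so reads are not independent molecules. Symbols, positions and exon overlaps came from GENCODE 44, for 29063 genes. The procedure was tested on simulated data. These had the same dispersion between replicates in both groups and no trend of fold change with gene length or GC content. They therefore do not check p-values where the groups differ in spread or such trends occur.

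The 52 genes, the other lists and the tests were chosen with earlier results of these data known. Values in every library are given for each DE gene and for *CDK4*, *CCNE1*, *CDKN1B*, *CDKN2B*, *RB1*, *E2F1*, *CDC6*, *CDT1*, *MCM2* to *MCM7*, *PCNA*, *RRM2*, *TYMS* and *DNMT1* whatever their test. Of the 92 other pathway genes, up to 5 in each direction are named. *CCNE2*, *TK1* and others outside this rule were chosen after their values were seen. In all, 20 alternatives were run, 6 of them leaving out 1 replicate.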

Additional observations from a re-analysis of the deposited data

How the results depend on the processing

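The log2 fold changes of the 51 genes under 20 alternatives were sorted by whether they changed direction. None of those that did was a DE gene in the main comparison. With unscaled FPKM these were *CCND3* (-0.06), *CDKN2C* (-0.05), *CDC6* (-0.0), *MCM7* (-0.05), *RFC3* (-0.04) and *PRIM1* (-0.04). With TPM they were *CCND3* (-0.18), *CDK4* (-0.01), *CDKN1B* (-0.09), *CDKN2C* (-0.17), *CDC6* (-0.12), *MCM3* (-0.04), *MCM7* (-0.17), *PCNA* (-0.09), *RFC3* (-0.17), *RFC5* (-0.01), *POLA2* (-0.09), *PRIM1* (-0.16), *FEN1* (-0.02) and *TK1* (-0.09). With quantile normalization they were *CDKN2C* (-0.02), *E2F2* (0.04), *MCM7* (-0.16), *PCNA* (-0.08), *RFC3* (-0.01), *PRIM1* (-0.02) and *TK1* (-0.14). With the length correction, and equally with the replicate block and length correction, they were *CDKN2C* (-0.04), *E2F2* (0.02), *MCM5* (0.08), *PCNA* (-0.02), *RFC3* (-0.06), *PRIM1* (-0.08), *POLE* (0.08) and *TK1* (-0.02). Leaving out 1 replicate, the ranges that crossed 0 were -0.07 to 0.11 for *CCND3*, -0.01 to 0.14 for *CDC6*, -0.16 to 0.08 for *CDKN2B*, -0.08 to 0.12 for *CDKN2C*, -0.09 to 0.05 for *E2F2*, -0.17 to 0.02 for *GINS1*, -0.14 to 0.01 for *MCM5*, -0.06 to 0.09 for *MCM7*, -0.28 to 0.01 for *POLA1*, -0.04 to 0.14 for *PRIM1*, -0.06 to 0.10 for *RFC3* and -0.0 to 0.22 for *TK1*. The cause was not tested.

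Counts are given as upregulated and downregulated, for the 51 genes, the 89 other pathway genes and all tested genes. The main counts were 4 and 2, 6 and 5, and 998 and 794. They were 1 and 2, 4 and 2, and 329 and 191 without a filter on low values, where 27922 genes were tested. They were 3 and 4, 5 and 7, and 662 and 1124 unscaled, 0 and 12, 4 and 13, and 383 and 2387 with TPM, and 3 and 4, 6 and 7, and 873 and 895 with quantile normalization. Limma without trend gave 0 and 2, 4 and 2, and 436 and 416, voom on whole reads 7 and 4, 11 and 8, and 1301 and 1508, and the GC correction 9 and 8, 12 and 7, and 1653 and 1505. Leaving out 1 replicate gave 0 to 9 and 0 to 5, 0 to 12 and 0 to 9, and 55 to 1813 and 14 to 1682. Pseudocounts of 1 and 0.01, a minimum of 1 FPKM, robust estimation and the length correction stayed within 1.5 times of the main counts.

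Same-numbered replicates were not shown to be paired, since their deviations from the group means correlated at 0.063, 0.10 and -0.053 and case replicates 1 and 3 correlated best with another number. With the replicate block the counts were 2 and 2, 6 and 5, and 848 and 762, and *CDK2* and *GINS3* were not called. The replicate block and length correction together gave 0 and 1, 6 and 6, and 552 and 332.

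With 3 libraries a group, a gene that missed the threshold is not shown to be unchanged. Levels of *CCND2*, *CCNE2*, *CDKN1C* and *CDK6* rest on fewer than 160 reads a library.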

Other observations

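Genes of G2 and mitosis, which follow replication in the cycle and were listed for comparison, gave both directions as well. All 40 were tested, and 5 were upregulated and 3 downregulated (8 of 40, against 13.2% of all tested genes), with a median log2 fold change of 0.01. The upregulated ones were *PTTG1* (securin, 0.46), *UBE2C* (0.40), *CCNB2* (cyclin B2, 0.37), *BIRC5* (survivin, 0.33) and *AURKA* (0.33). Of these *UBE2C*, which encodes an enzyme of the anaphase-promoting complex pathway, had 119.6, 122.8 and 118.8 FPKM in the control group and 152.1, 146.7 and 154.5 in the case group. The downregulated ones were *MKI67* (-0.81), *TTK* (-0.62) and *INCENP* (-0.58). *MKI67*, which encodes the proliferation marker Ki-67, had 31.0, 35.3 and 32.9 FPKM against 13.6, 23.9 and 17.3, again with case replicate 2 nearest to the control group. In their promoters the CHR element was found in 57.6% of the 33 genes with a sequence and the E2F words in 3.03%, against 4.44% and 40.0% among the G1/S and replication genes. Among the other pathway genes these shares were 17.9% and 16.7%.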
